A study of Mus musculus with 8 samples.

Results

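The homeostatic microglia genes described here are Tmem119, P2ry12, P2ry13, Cx3cr1, Siglech, Sall1, Gpr34, Olfml3 and Fcrls, 9 of the 57010 Ensembl gene identifiers in a table of raw read counts from whole mouse retina. They were taken by name, as the rows whose identifier carries one of these symbols in the GENCODE M21 annotation, and all 9 were among the 20457 genes with enough counts to be tested. The rule used no measured value, although the set was put together with earlier results of these data known.

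Retinas of wild-type (WT) mice were taken at postnatal day 15 (P15), and those of rd10 mice at P15, P18 or P21, each library holding 1 whole retina and each group 2 libraries, 8 in all. The rd10 mice were homozygous for a mutation of Pde6b, the gene of the beta subunit of the rod cyclic GMP phosphodiesterase, whose loss of function kills rods and later cones. The study used this model to ask whether photoreceptor degeneration moves microglia away from their resting state. According to the methods, WT mice were C57BL/6J and controls of rd10 mice were WT littermates. There was no WT retina at P18 or P21, and the comparisons of these ages with WT P15 change age and genotype together and share the same control libraries. The labels do not say whether the 2 retinas of a group came from separate animals. In rd10 P18 and rd10 P21 the replicates differed in sex by their transcripts and so came from different animals, while for WT P15 and rd10 P15 the spread between replicates may be technical.

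Libraries held between 28076947 and 33724562 counts on genes. The spread between replicates was wider than that of counting alone (chi-square per gene between 24.5 and 103, where sampling of reads gives about 1). This spread was widest in rd10 P18, at 103, and at most 39.4 in the other groups. By Y-linked transcripts and Xist, both WT P15 libraries were female, both rd10 P15 libraries were male, and rd10 P18 and rd10 P21 each held a male (replicate 1) and a female (replicate 2), so that sex and genotype cannot be told apart at P15. The summed level of 4 rod genes (Gnat1, Nrl, Pde6a and Sag) lay between 18924 and 20237 counts scaled to a fixed library total (CPM) in WT P15 and between 8979 and 15067 in the 6 rd10 libraries, and the 4 lens genes summed to at most 3.82 CPM in any library.

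Microglia are the resident macrophages of the retina. In the healthy tissue they sit in the plexiform layers with fine, moving processes, and their identity is held by transforming growth factor beta (TGF-beta) and by the transcription factor SALL1. In the resting or homeostatic state they display receptors that sense nucleotides (P2RY12, P2RY13), a lysophospholipid (GPR34) and the neuronal chemokine fractalkine (CX3CR1), together with surface proteins such as TMEM119, SIGLECH and FCRLS. In many models of neurodegeneration this set is lowered in individual microglia that take on a disease-associated state, which the counts of a whole tissue cannot follow cell by cell. The set is not exclusive to microglia. Siglech also marks plasmacytoid dendritic cells, Cx3cr1 is made by monocytes, and Sall1 and Olfml3 are used by other cells in development.

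Most members lie alone in their stretch of genome, but 3 share it with a larger gene. P2ry12 (chr3:59216272-59262871) and P2ry13 (chr3:59207892-59210882), on the minus strand in GRCm38, are neighbours inside the span of Med12l, which runs on the opposite strand and shares 9 exon bases with P2ry12 and 0 with P2ry13. Gpr34 (chrX:13632089-13640858, plus strand) lies inside Cask, also on the opposite strand, with 0 exon bases shared. Med12l had between 36.3 and 66.7 CPM and Cask between 64.0 and 113, both far above the members inside them, and whether the counting used strand is not given in the sources used here. The long span of Cx3cr1 (chr9:119901616-120069879, minus strand) crosses 9 other genes and shares exon bases with 1 of them, Gm33858, which had at most 2 counts in any library.

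The 250 bases before the start of P2ry13 and of P2ry12 are printed because these receptor genes are neighbours whose fitted differences in rd10 P15 were 1.44 (P2ry12) and -0.0041 (P2ry13) on the log2 scale, neither of them called. Both are from RefSeq on GRCm38.p6, read 5′ to 3′ on the minus strand, and cover chr3:59210883-59211132 and chr3:59262986-59263235. Capitals mark GAGGAA, a core that PU.1, the myeloid master regulator, often binds.
P2ry13: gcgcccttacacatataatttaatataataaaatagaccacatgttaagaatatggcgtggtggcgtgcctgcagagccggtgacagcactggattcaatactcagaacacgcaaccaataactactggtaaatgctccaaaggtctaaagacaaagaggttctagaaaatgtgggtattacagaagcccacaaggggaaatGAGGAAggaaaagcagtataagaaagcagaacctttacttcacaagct
P2ry12: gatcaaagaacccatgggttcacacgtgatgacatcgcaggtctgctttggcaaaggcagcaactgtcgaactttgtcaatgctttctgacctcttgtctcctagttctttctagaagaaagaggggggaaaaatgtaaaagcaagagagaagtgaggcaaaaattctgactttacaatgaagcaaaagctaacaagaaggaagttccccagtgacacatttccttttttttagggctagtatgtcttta
The P2ry13 window holds GAGGAA 48 bases before the start, and the P2ry12 window holds it on neither strand. Of the 7 members with a RefSeq window, 2 (P2ry13 and Fcrls) hold GAGGAA on either strand, against 23.3% of 32851 mouse windows of the same length. The SMAD-type core CAGAC was found for 5 of the 7 against 42.2% of windows. These shares count genes for the members and windows for the background, and Sall1 has more than 1 window. Counted by window, 2 of the members' 9 held GAGGAA and 5 of 9 held CAGAC. Such matches describe letters only and are not binding sites. Tmem119 and Gpr34 had no window.

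Levels are given as CPM scaled by TMM factors, and a gene is called where edgeR's quasi-likelihood test gave an adjusted p under 0.05, over all 20457 genes, with an absolute log2 fold change over 1. Against WT P15, none of the 9 members had a called fall in rd10 retina at any age, and Fcrls and Tmem119 had called rises. In rd10 P15 edgeR called 0 of 9, against 0.23% of all genes tested, and 2 had an unadjusted p under 0.05 (Fcrls and P2ry12), as 12.3% of all genes did. DESeq2 called both of these, against 2.12% of the genes to which it gave an adjusted p. In rd10 P18 edgeR called 2 of 9 (Fcrls and Tmem119), against 1.48% of all genes, and in rd10 P21 1 of 9 (Fcrls), against 0.386%. The members with an unadjusted p under 0.05 numbered 4 at P18 and 8 at P21, against 17.4% and 11.8% of all genes. DESeq2 called 3 at P18, adding Cx3cr1, against 4.7%, and 4 at P21, namely Fcrls, Tmem119, P2ry12 and Sall1, against 2.74%. In tissue of mixed cells, more cells of a type and more RNA per cell cannot be told apart.

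Short of the call, the direction was mostly upward. The 2 rd10 libraries were both higher than the 2 WT libraries for 6 of 9 members at P15, 7 at P18 and 9 at P21, where 24.8%, 24.1% and 24.9% of all genes tested did so. Olfml3 at P18 was the only member with both rd10 libraries below both of WT P15, as 22.9% of all genes tested were at that age. The median log2 fold change of the members was 0.70 at P15, 0.77 at P18 and 1.41 at P21. With a term for sex the P15 value was 0.19. At P15 sex and genotype coincide, so the fit took this term from the rd10 P18 and P21 libraries alone. In those, sex follows the replicate number. The P18 value was 1.34 without WT P15 replicate 2 and lay between 0.77 and 1.12 without any other library. The members come from the same cells and libraries and are not independent of each other.

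**Figure D1:**
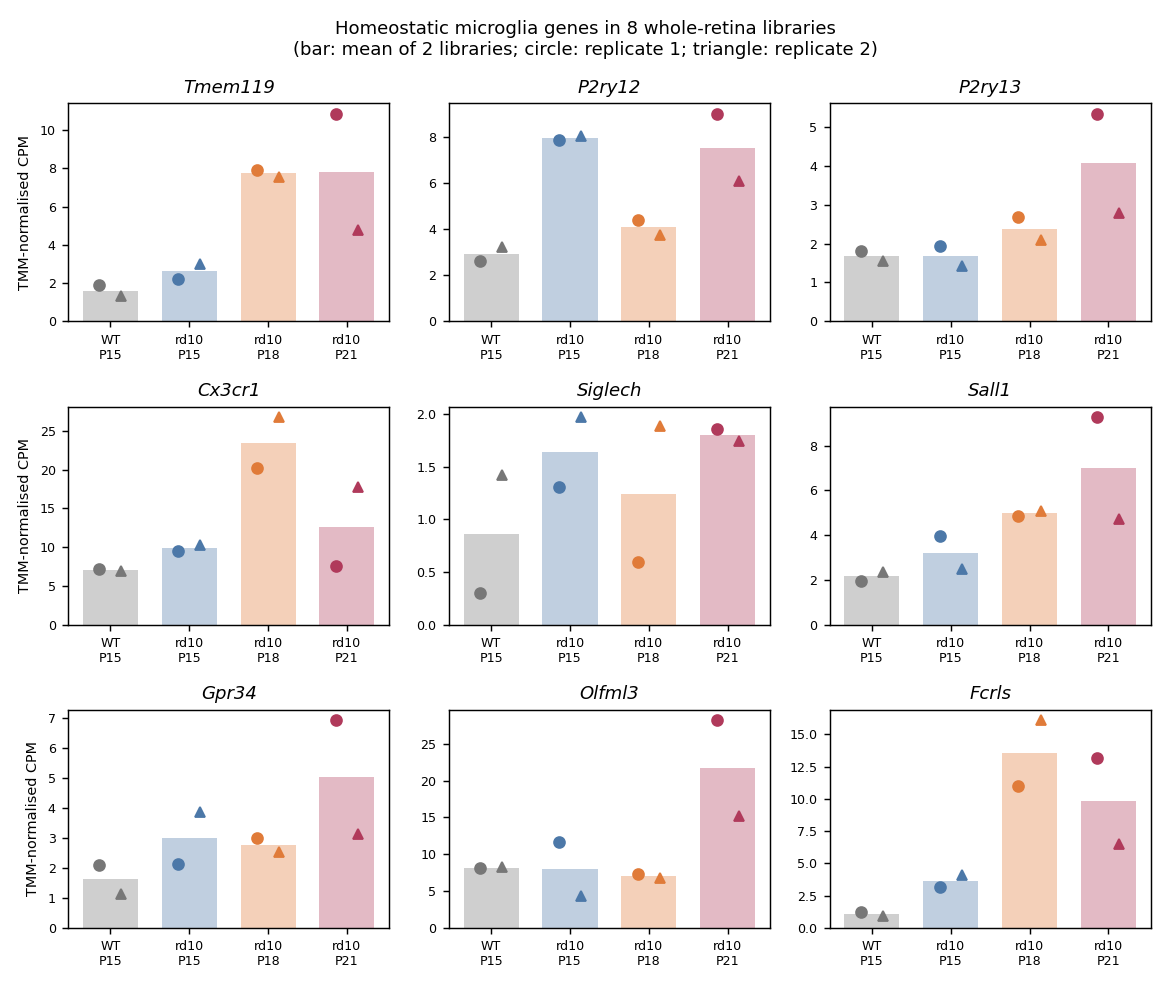
TMM-normalised CPM (linear axis from 0, a scale of its own in each panel) of the 9 genes in WT P15, rd10 P15, rd10 P18 and rd10 P21, with bars for the mean of 2 libraries, circles for replicate 1 and triangles for replicate 2. Replicate 1 of rd10 P21 is the highest of the 8 libraries for 6 genes, and Fcrls climbs from a mean of 1.06 CPM (WT P15) to 13.6 (rd10 P18).

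Fcrls, an Fc receptor-like scavenger receptor of mouse microglia, moved most. It had 1.22 and 0.906 CPM in the WT retinas, 3.18 and 4.12 in rd10 retinas of P15, 11.04 and 16.1 in those of P18, and 13.2 and 6.54 in those of P21. Every rd10 library was above both WT libraries, and every P18 and P21 library was above both rd10 P15 libraries. Its level in rd10 P18 was 12.7-fold that in WT P15 (log2 fold change 3.67, standard error 0.44, edgeR adjusted p = 0.0116), and in rd10 P21 9.28-fold (3.21, standard error 0.44, adjusted p = 0.0351). At P15 the fitted difference was 1.78 on the log2 scale (standard error 0.42, adjusted p = 0.128 by edgeR). The P18 call depended on each WT library, with adjusted p of 0.0921 without replicate 1 and 0.0736 without replicate 2. The P21 call was lost without WT P15 replicate 1 (0.198) or replicate 2 (0.148), without rd10 P15 replicate 1 (0.0684) or replicate 2 (0.0707), without rd10 P21 replicate 1 (0.122), with the replicate number as a block (0.0579), and with a term for sex (0.0769).

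Tmem119, a transmembrane protein used to tell microglia from other macrophages, rose at P18. It had 1.88 and 1.33 CPM in the WT retinas, 2.23 and 2.996 in rd10 retinas of P15, 7.93 and 7.56 in those of P18, and 10.8 and 4.79 in those of P21. The rd10 P18 libraries were close to each other, while the rd10 P21 libraries lay on either side of them. The log2 fold change against WT P15 was 2.27 at P18 (standard error 0.45, edgeR adjusted p = 0.0479), a 4.82-fold level, and 2.28 at P21 (standard error 0.45, adjusted p = 0.087), which was not called. The call at P18 lay near the threshold and was lost without WT P15 replicate 1 (adjusted p = 0.217) or replicate 2 (0.221), without rd10 P15 replicate 1 (0.0776) or replicate 2 (0.0787), without rd10 P18 replicate 1 (0.0836), with the 4 compared libraries alone (0.071), with the replicate number as a block (0.0631) and with a term for sex (0.0947). At P21 it was gained without rd10 P18 replicate 1 (0.0495) or rd10 P21 replicate 2 (0.0333).

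Siglech encodes a sialic acid-binding lectin that signals through the adaptor DAP12. It had 0.296 and 1.42 CPM in the WT retinas, 1.30 and 1.97 in rd10 retinas of P15, 0.597 and 1.89 in those of P18, and 1.86 and 1.75 in those of P21. The lowest of these values rests on 8 reads (95% exact Poisson interval 3.45 to 15.8, for counting error only), and the groups overlapped at P15 and P18. Its log2 fold changes of 0.92, 0.52 and 1.06 had a standard error of 0.83 each and adjusted p between 0.703 and 0.801 by edgeR. No difference was detectable for Siglech at this depth, and at P18 its log2 fold change was -0.19 when WT P15 replicate 1 was left out and -0.53 when rd10 P18 replicate 2 was.

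Cx3cr1, the receptor for fractalkine, had its highest values at P18. The libraries held 7.13 and 6.86 CPM in the WT retinas, 9.52 and 10.3 in rd10 retinas of P15, 20.2 and 26.8 in those of P18, and 7.54 and 17.8 in those of P21. Each rd10 library was above both WT libraries, but replicate 1 of rd10 P21 stood barely above them. The log2 fold change was 0.50 (standard error 0.37) at P15, 1.75 (standard error 0.38, edgeR adjusted p = 0.0623) at P18 and 0.85 (standard error 0.37, adjusted p = 0.419) at P21. Cx3cr1 at P18 passed the threshold without rd10 P21 replicate 1 (adjusted p = 0.0189) or replicate 2 (0.0194), with library size as the only scaling (0.0393), without a low-count filter (0.0307) and with a term for sex (0.0235). At P21 its log2 fold change was 1.35 without rd10 P21 replicate 1 and 0.11 without replicate 2.

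P2ry12, the ADP receptor that steers microglial processes to sites of injury, had its higher rd10 values at P15 and P21, in differences that were not called. It had 2.62 and 3.24 CPM in the WT retinas, 7.86 and 8.07 in rd10 retinas of P15, 4.41 and 3.75 in those of P18, and 9.02 and 6.08 in those of P21. The rd10 P15 replicates were within 0.150 CPM (SD) of their mean of 7.97, and both P18 libraries fell between those of WT P15 and those of rd10 P15. The log2 fold change against WT P15 was 1.44 at P15 (standard error 0.32, edgeR adjusted p = 0.11), 0.48 at P18 (standard error 0.31, adjusted p = 0.479) and 1.36 at P21 (standard error 0.32, adjusted p = 0.122). From rd10 P15 to rd10 P18 the difference was -0.96 (standard error 0.31, adjusted p = 0.254), which edgeR did not call. With a term for sex, which the fit took from the P18 and P21 libraries alone, the value at P15 was 1.04 (edgeR adjusted p = 0.499). The summed level of the 4 endothelial genes was also highest in rd10 P15, at 75.8 and 86.1 CPM. It was 32.7 and 27.6 in the WT retinas, and between 52.7 and 59.2 in the rd10 retinas of P18 and P21. Among these genes Cldn5, a tight junction protein of vessels, was called in rd10 P15 (log2 fold change 2.00, standard error 0.21, adjusted p = 0.015 by edgeR). Cldn5 was also called in rd10 P18 (1.69, standard error 0.21, edgeR adjusted p = 0.0125) but not in rd10 P21 (1.21, adjusted p = 0.0602). Tek did not follow the sum. It had 8.72 and 15.5 CPM in rd10 P15, 9.83 and 5.96 in the WT retinas, and 9.82 and 13.8 in rd10 P21. The 4 genes of the retinal pigment epithelium summed to 23.9 and 88.7 CPM in the WT retinas, 127 and 156 in rd10 P15, and between 13.2 and 22.5 at P18 and P21, where Lrat was called lower at P21 (log2 fold change -2.996 against WT P15, adjusted p = 0.0488 by edgeR). Ttr made up most of the rd10 P15 sums, at 99.4 and 124 CPM. Best1, with at most 36 reads in a library, did not follow the sum. It had 1.11 and 0.259 CPM in the WT retinas, 0.159 and 0.494 in rd10 P15, and 0.60 and 1.26 in rd10 P21. The 4 red blood cell genes summed to 186 and 176 CPM in the WT retinas, 65.6 and 83.1 in rd10 P15, and between 56.2 and 158 at the later ages, and edgeR called 0 of them in rd10 P15 (4 at an unadjusted p under 0.05, and 2 called lower by DESeq2). The part of vessels, pigment epithelium and blood in the P2ry12 values was not tested.

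P2ry13, another ADP receptor of microglia, had overlapping values in WT P15 and rd10 P15. It had 1.81 and 1.55 CPM in the WT retinas, 1.94 and 1.41 in rd10 retinas of P15, 2.68 and 2.08 in those of P18, and 5.34 and 2.80 in those of P21. Its log2 fold change was -0.0041 at P15 (standard error 0.47), 0.50 at P18 (standard error 0.46) and 1.27 at P21 (standard error 0.47, edgeR adjusted p = 0.333). Across the 8 libraries the log2 levels of P2ry12 and P2ry13 had r = 0.411, although the genes lie side by side.

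Gpr34, a receptor for lysophosphatidylserine on the X chromosome, had 2.11 and 1.13 CPM in the WT retinas, 2.13 and 3.88 in rd10 retinas of P15, 3.01 and 2.52 in those of P18, and 6.94 and 3.15 in those of P21. The groups were apart from WT P15 at each age, by a narrow margin at P15, but replicates differed widely. Its log2 fold changes were 0.89, 0.77 and 1.64 (standard error 0.54 each), with edgeR adjusted p of 0.559, 0.504 and 0.277.

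Sall1, the zinc finger transcription factor that holds microglial identity, had 1.96 and 2.36 CPM in the WT retinas, 3.95 and 2.47 in rd10 retinas of P15, 4.86 and 5.07 in those of P18, and 9.28 and 4.72 in those of P21. It was higher in every rd10 library than in both WT libraries. The log2 fold changes were 0.57, 1.20 and 1.69 (standard errors 0.42, 0.42 and 0.43), with edgeR adjusted p of 0.649, 0.201 and 0.15. Sall1 was also the member whose log2 profile was most like the mean of the other members, with r = 0.937 over the 8 libraries.

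Olfml3, a secreted olfactomedin-like matrix protein, had 8.09 and 8.29 CPM in the WT retinas, 11.6 and 4.27 in rd10 retinas of P15, 7.37 and 6.74 in those of P18, and 28.2 and 15.2 in those of P21. The P21 libraries were the 2 highest of the 8, and both P18 libraries were below WT. Against WT P15 the log2 fold change was -0.04 at P15, -0.22 at P18 (standard error 0.46 each) and 1.41 at P21 (standard error 0.46, edgeR adjusted p = 0.274). Between rd10 P21 and rd10 P18 it was 1.62 (standard error 0.46, adjusted p = 0.429), so that the shift between the ages was not called.

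**Figure D2:**
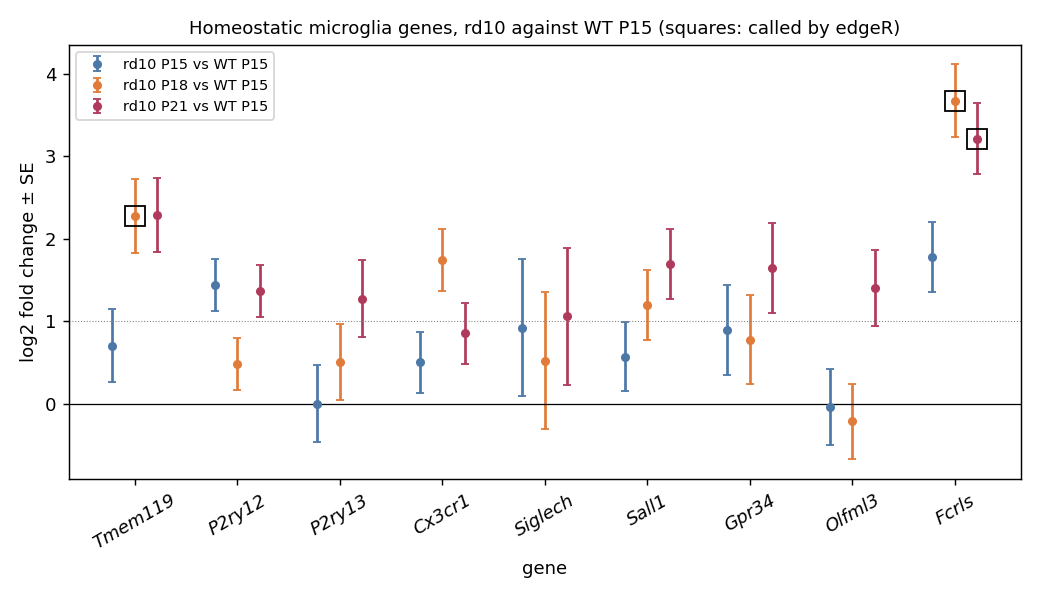
Fitted log2 fold changes (points) with their standard errors (bars) of the 9 genes in rd10 P15, P18 and P21 against WT P15, all set against the same 2 control libraries, with the dotted line at 1 and squares around the changes called by edgeR. The called changes are Fcrls at P18 (3.67) and P21 (3.21) and Tmem119 at P18 (2.27), while Olfml3 sits at -0.22 at P18 and 1.41 at P21.

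Between the rd10 ages edgeR called no member. From P15 to P18 it called 0 of 9, against 0.591% of all genes tested, while 4 members had an unadjusted p under 0.05 (12.9% of all genes) and DESeq2 called 3 (Cx3cr1, Fcrls and Tmem119), against 2.99%. From P15 to P21 edgeR called 0 of 9, against 0.401%, with 5 at an unadjusted p under 0.05 (12.8% of all genes), and DESeq2 called 2 (Fcrls and Tmem119), against 2.69%. From P18 to P21 edgeR called 0 of 9, against 0.0196%, with 3 at an unadjusted p under 0.05 (10.8% of all genes), and DESeq2 called 0, against 0.582%. Fcrls differed by 1.89 from P15 to P18 (standard error 0.40, edgeR adjusted p = 0.101), and Tmem119 by 1.58 from P15 to P21 (standard error 0.44, adjusted p = 0.188). For Cx3cr1 the difference from P18 to P21 was -0.89 (standard error 0.37, adjusted p = 0.445).

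The order of the members by level, in CPM per kb of exon, changed between the groups. In WT P15 Cx3cr1 was highest at 1.55 CPM per kb, followed by Olfml3 at 1.33 and P2ry12 at 1.15, and Siglech was lowest at 0.254. The ranges of these top 3 over their 2 libraries did not overlap. In rd10 P15 P2ry12 led at 3.13 CPM per kb, ahead of Cx3cr1 at 2.20, and again the ranges were apart. In rd10 P18 Fcrls (5.81 CPM per kb) and Cx3cr1 (5.21) led with overlapping ranges, and Tmem119 followed at 3.35, below both. In rd10 P21 Fcrls (4.23 CPM per kb), Olfml3 (3.52) and Tmem119 (3.38) came at the top, and the ranges of the top 6 members overlapped. Fcrls, Olfml3, P2ry12 and Gpr34 kept this order in each library. They had 5.65, 4.58, 3.54 and 3.32 CPM per kb in replicate 1, and 2.80, 2.47, 2.39 and 1.51 in replicate 2. The places of Tmem119 and Cx3cr1 differed between the replicates. Siglech was lowest in every group. The lengths come from M21 exons and may differ from the gene models the authors counted.

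Not all members moved together across the 8 libraries. As a description, the log2 CPM of Tmem119 and Fcrls had r = 0.962, and those of P2ry13 and Sall1 had r = 0.893, while Cx3cr1 and Olfml3 had r = -0.234. Cx3cr1 was least like the mean of the other members (r = 0.369), next to Siglech (0.403) and Olfml3 (0.435). All these correlations share the same 8 libraries, with their depth, sex and age. Outside the set, the genes with a mean count of at least 50 whose log2 profile was most like the mean profile of the members were Zbtb8b and Hpgds (r = 0.979 each), Nfatc1 (0.978), Csf1r (0.976) and Tgfbr2 (0.972). Csf1r encodes the receptor microglia need to survive, and Hpgds a prostaglandin synthase listed below among other homeostatic genes. The gene most like Tmem119 was Bin2 (r = 0.986), and that most like Fcrls was Sla (0.984). For the other members these were Slc32a1 (Siglech, 0.980), Selenon (Sall1, 0.9755), Adgrg6 (Cx3cr1, 0.968) and Pde1a (Olfml3, 0.968). Kif9 (P2ry12, 0.960), Scg3 (Gpr34, 0.9495) and Dmpk (P2ry13, 0.949) completed the list. Slc32a1 had 149 to 205 CPM and Scg3 182 to 231, far above every member. Each match is the highest r among many genes over 8 libraries, and does not place 2 genes in the same cells.

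Summed over the 9 members, the level was 27.1 CPM in both WT libraries, 43.8 and 39.5 in rd10 retinas of P15, 62.1 and 72.5 in those of P18, and 92.2 and 62.8 in those of P21. Genes of myeloid cells in general had higher sums at the later ages. A list of 12 such genes (Aif1, Itgam, Ptprc, Csf1r, Tyrobp, Fcer1g, Spi1, Laptm5, Ctss, C1qa, C1qb and C1qc) summed to 50.1 and 64.0 CPM in the WT retinas, 86.9 and 77.8 in rd10 retinas of P15, 283 and 256 in those of P18, and 425 and 179 in those of P21. The members thus came to 54.1% and 42.4% of the general myeloid sum in WT P15 and 50.4% and 50.8% in rd10 P15, against 21.9% and 28.3% at P18 and 21.7% and 35.2% at P21. All 4 libraries of the later ages were below all 4 libraries at P15. This split was seen in the values, sets ages and genotypes side by side, and was not tested. The share depends on the genes in the list, whose log2 fold changes at P18 ran from 1.36 (Csf1r) to 6.20 (Itgam). C1qc had 2.73 and 7.38 CPM in the WT retinas and 44.0 and 35.9 in those of P18. Csf1r rose less. It had 16.9 and 16.7 CPM in the WT retinas, 28.6 and 25.3 in rd10 P15, 33.9 and 52.4 at P18, and 84.2 and 40.0 at P21. Tmem119 and Fcrls did not show the split. Tmem119 came to 3.76% and 2.08% of the general myeloid sum in the WT retinas, 2.56% and 3.85% in rd10 retinas of P15, 2.80% and 2.95% in those of P18, and 2.55% and 2.68% in those of P21. Fcrls came to 2.43% and 1.42% in the WT retinas, 3.66% and 5.30% in rd10 retinas of P15, 3.90% and 6.28% in those of P18, and 3.10% and 3.66% in those of P21.

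**Figure D3:**
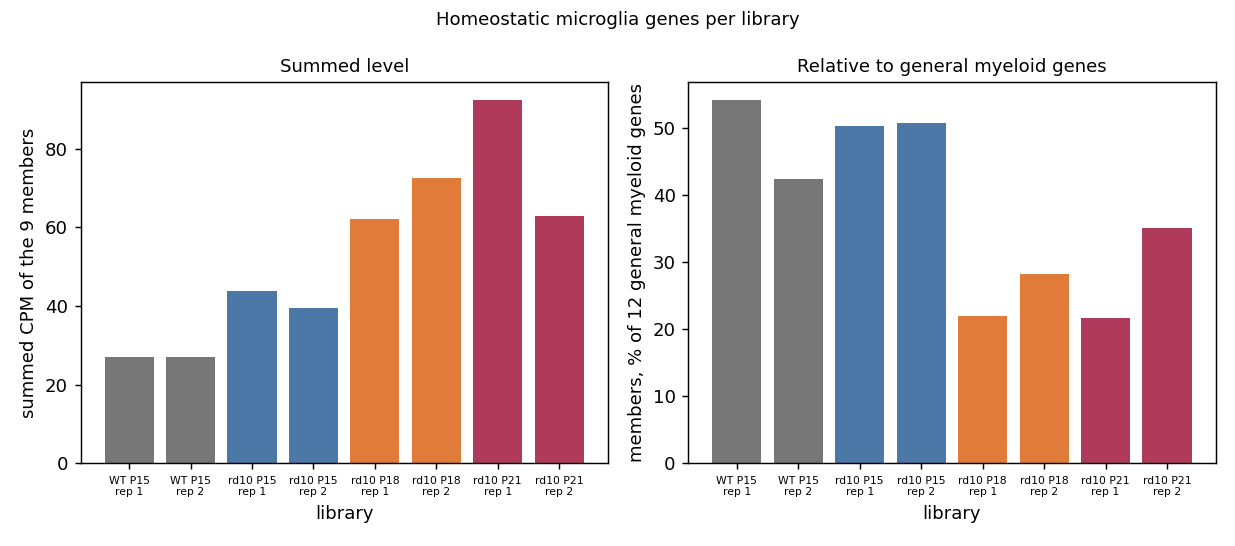
Left, the summed CPM of the 9 genes in each of the 8 libraries. Right, that sum as a percentage of the summed CPM of 12 general myeloid genes. The sum is higher in all 6 rd10 libraries than in WT P15, while its share of the myeloid sum drops from between 42.4% and 54.1% at P15 to between 21.7% and 35.2% at P18 and P21.

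By gene, the log2 fold changes of the general myeloid list had medians of 0.41 at P15, 2.48 at P18 and 2.54 at P21, while the median over all genes tested was within 0.0113 of 0 at each age. edgeR called 0 of 12 at P15 (1 at an unadjusted p under 0.05), 3 at P18 (Itgam, C1qa and Ctss) and 2 at P21 (Itgam and C1qa), and DESeq2 called 1, 10 and 10. As background for this and the lists below, edgeR called 0.23%, 1.48% and 0.386% of all genes at the 3 ages. An unadjusted p under 0.05 was reached by 12.3%, 17.4% and 11.8%, and DESeq2 called 2.12%, 4.7% and 2.74%. A further 11 genes of homeostatic microglia that are no members had medians of 0.77, 0.74 and 1.02. Of these, edgeR called 0 at each age (2, 4 and 6 at an unadjusted p under 0.05), and DESeq2 called 0, 1 (Hpgds) and 4 (Abi3, Hpgds, Selplg and Slco2b1). The list is mixed in level. Mef2a and Tgfbr1 had means of 119 and 48.7 CPM in WT P15, far above every member. Mef2a had log2 fold changes of 0.04, -0.24 and -0.11. Slc2a5 and Ltc4s had mean counts of 15 and 12.25 and were at 0 in some libraries. Hpgds had fitted differences of 3.23 on the log2 scale at P18 (adjusted p = 0.0807) and 3.82 at P21 (adjusted p = 0.0945) without a call by edgeR, from 4 and 10 reads in WT P15. The 14 disease-associated genes, some of which the study picked on these libraries, had medians of 0.20, 1.82 and 1.69, with 0, 5 and 0 called by edgeR (3, 10 and 12 at an unadjusted p under 0.05) and 1, 8 and 8 by DESeq2. The DESeq2 call at P15 was a lower level, of Clec7a, and those at P18 and P21 were all higher.

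**Figure D4:**
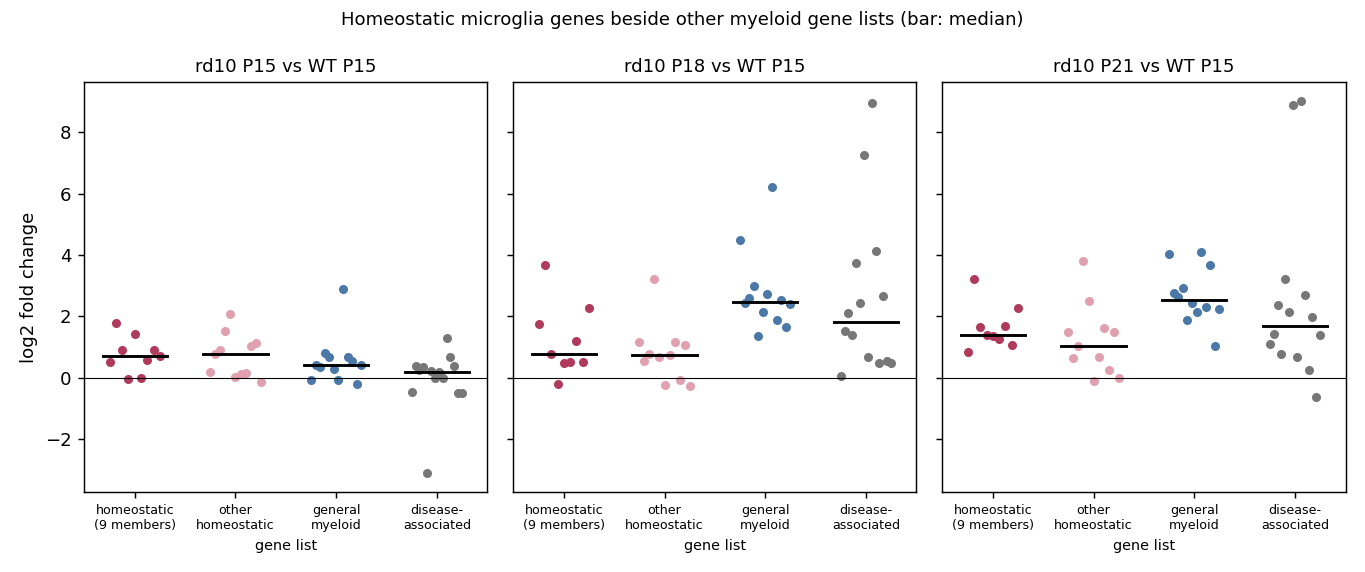
Log2 fold changes against WT P15 of the 9 members, 11 other homeostatic genes, 12 general myeloid genes and 14 disease-associated genes (points) with the median of each list (bars), at P15, P18 and P21. At P18 the medians are 0.77, 0.74, 2.48 and 1.82, and the members reach from -0.22 to 3.67.

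Ligands and upstream factors of the members were measured too. Of 16 such genes edgeR called 0, 1 and 0 at P15, P18 and P21 against WT P15, with 3, 7 and 5 at an unadjusted p under 0.05, and DESeq2 called 0, 1 and 2. The median log2 fold changes were 0.25, 0.40 and 0.30. The call by edgeR was Csf1, the growth factor that acts through CSF1R, with 3.18 and 3.50 CPM in the WT retinas and 18.3 and 18.2 at P18 (log2 fold change 2.45, standard error 0.41, adjusted p = 0.0303). Cx3cl1, which encodes fractalkine, had 141 and 154 CPM in the WT retinas, 24.9 and 148 in rd10 retinas of P15, 152 and 166 in those of P18, and 167 and 168 in those of P21. The low value was that of rd10 P15 replicate 1 alone, whose Cx3cr1 level of 9.52 CPM was close to the 10.3 of replicate 2. The TGF-beta receptor gene Tgfbr2 had log2 fold changes of 0.57, 0.79 and 1.11, with edgeR adjusted p of 0.452, 0.197 and 0.144, and both rd10 libraries were above both WT libraries at each age. Tgfb1, the ligand, had 0.79, 1.57 and 0.95 with adjusted p of 0.586, 0.17 and 0.521.

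Among 22 genes of the same families as the members, 15 were tested, and edgeR called 0, 1 and 0 of them (3, 6 and 8 at an unadjusted p under 0.05), and DESeq2 0, 3 and 5. The chemokine receptor Ccr1 was called at P18 (adjusted p = 0.04), with 0 counts in all 4 libraries at P15 and 98 and 63 in rd10 P18. P2ry6, the UDP receptor linked to microglial phagocytosis, had 0.480 and 0.777 CPM in the WT retinas, 0.191 and 0.388 in rd10 retinas of P15, 3.40 and 3.75 in those of P18, and 4.14 and 1.82 in those of P21, with edgeR adjusted p of 0.0887 at P18. P2ry1, another ADP receptor, had log2 fold changes of 0.74, 0.70 and 0.90 and was not called (adjusted p between 0.127 and 0.195).

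Blood and border macrophage genes differed between the libraries too. Of 8 genes of blood monocytes and border macrophages, 5 and 7 were at 0 in the WT P15 libraries and 4 in each rd10 P15 library, but only 1 (Cd163) in each rd10 P18 library and in rd10 P21 replicate 1. Plac8 and Ly6c2, genes of blood monocytes, were at 0 in rd10 P21 replicate 2 and had 66 and 230 counts in replicate 1, and in rd10 P18 Plac8 had 206 and 32 counts and Ly6c2 had 162 and 64. The list summed to 18.5 and 14.7 CPM in the WT retinas, 20.4 and 16.2 in rd10 retinas of P15, 34.7 and 24.3 in those of P18, and 36.3 and 23.4 in those of P21, and Lyve1 made up most of it. edgeR called 0 genes of this list against WT P15 at any age (2, 5 and 4 at an unadjusted p under 0.05), and DESeq2 called 0, 4 and 2. Replicate 1 of rd10 P21 had the highest level of 6 of the 9 members and the more counts of Plac8 and Ly6c2 in its group, while Mrc1, a gene of border macrophages, had 4 counts there and 58 in replicate 2. The part of monocytes and border macrophages in the member values was not tested. Without that library the members' median at P21 was 1.05, and without replicate 2 it was 1.79.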

How the data were processed

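Poly(A) RNA of whole retina was sequenced by the authors, whose processing notes name HISAT2. The sources used here do not give the counting tool, genome build or annotation. The deposited values are raw counts per gene, whole numbers without normalization, for 57010 identifiers. All 8 columns were used. Symbols, positions and exon lengths came from GENCODE M21 (GRCm38), which names 52081 identifiers.

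Genes were kept by filterByExpr (minimum count 10, minimum total count 15), scaled by TMM and fitted with edgeR 4.0.16 (glmQLFit, robust, glmQLFTest) over all 8 libraries, leaving 4 residual degrees of freedom, with Benjamini-Hochberg adjustment over 20457 genes. A gene was called at an adjusted p below 0.05 where its log2 fold change exceeded 1 in size. Log2 CPM for correlations used a prior count of 2. DESeq2 1.42.0 and other alternatives are given below. Members, gene lists and the rule for genes named by likeness (mean count at least 50, Pearson correlation with a member or their mean) were chosen with earlier results of these data known. Some genes of the lists are not reported here. Figures were drawn with matplotlib 3.10.9. Total counts of at least 28076947 per library leave low members such as Siglech with few reads.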

Additional observations from a re-analysis of the deposited data

Results flagged for a closer look

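Olfml3 had fitted differences of opposite sign against WT P15 at the later ages, neither of them called. Both rd10 P18 libraries were below both WT P15 libraries (log2 fold change -0.22), and both rd10 P21 libraries were above them (1.41). The direct difference between rd10 P21 and rd10 P18 was 1.62 and was not called by edgeR (adjusted p = 0.429).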

How the results depend on the processing

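Counts of called members moved with the method. DESeq2 called 2, 3, 4, 3, 2 and 0 members at P15, P18 and P21 against WT P15, P18 against P15, P21 against P15 and P21 against P18, where edgeR called 0, 2, 1, 0, 0 and 0. At P18 against WT P15 the 4 compared libraries alone gave 1, and at P21 no low-count filter gave 2 and a sex term 0. Leaving out 1 library gave 0 to 3 members at P18 and 0 to 2 at P21 against WT P15, and 0 in the other comparisons, with medians of 0.51 to 0.90, 0.77 to 1.34, 1.05 to 1.79, 0.31 to 0.76, 0.74 to 1.54 and 0.18 to 0.90 in the order above, and a sex term gave a median of 0.19 at P15. For all genes, in the same order, DESeq2 called 431, 954, 571, 606, 530 and 118, a sex term 4, 191, 36, 275, 156 and 12, the 4 compared libraries alone 206, 143, 129, 74, 182 and 2, and leaving out 1 library 6 to 246, 39 to 1250, 4 to 210, 16 to 977, 10 to 217 and 3 to 963. Without a low-count filter 144 genes were called at P15, 160 at P21, 125 for P21 against P15 and 19 for P21 against P18. The cause of these shifts was not tested.

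Small changes turned sign. With library size only, which moved the median of all genes from -0.0061 to 0.033 at P15, to 0.13 at P18 and to 0.11 at P21, P2ry13 and Olfml3 at P15 were 0.0424 and 0.00632. With a sex term, Gpr34 (0.24) and Olfml3 (0.0922) turned for P18 against P15, P2ry12 (0.10), Cx3cr1 (-0.17) and Siglech (-0.19) for P21 against P15, and Tmem119 (-0.0976) for P21 against P18. With 1 library left out, the values that changed sign ranged at P15 from -0.25 to 0.21 for P2ry13 and from -0.94 to 0.51 for Olfml3, and at P18 from -0.53 to 2.06 for Siglech. For P18 against P15 they ranged from -1.45 to 0.21 for Siglech, -0.48 to 0.38 for Gpr34 and -0.72 to 0.73 for Olfml3, and for P21 against P15 from -0.39 to 0.19 for P2ry12, -0.39 to 0.84 for Cx3cr1 and -0.13 to 0.46 for Siglech. For P21 against P18 they ranged from -0.69 to 0.49 for Tmem119, -0.0691 to 1.59 for Siglech and -0.0748 to 0.90 for Sall1.

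Samples with the same replicate number did not deviate together over all genes (correlations of deviations from -0.02 to 0.06). With 1 difference per group, this cannot exclude a shared batch behind the numbers. In rd10 P18 and rd10 P21 the number also follows sex, male for replicate 1 and female for replicate 2. The sex term rests on these groups alone, since WT P15 held only female libraries and rd10 P15 only male ones. With the replicate number as a block, 16 genes were called at P15 and 18 at P21 against WT P15, 1 member was called at P18 and 0 at P21, and Tmem119 for P21 against P18 was -0.0453. RLE size factors and no fold threshold changed no count of called members.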
